A study of Drosophila melanogaster with 4 samples.

Results

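The 7 genes described here code for enzymes of glycogen, glucose and polyol metabolism in the fruit fly Drosophila melanogaster: UGP, Glys and CG9485 of glycogen turnover, Pgi and Gapdh1 of glycolysis, and Sodh1 and Miox of polyol oxidation. They were picked by name out of 6793 named genes with a spot on the array, and earlier results of the same arrays were known when they were picked. The values that chose them were the ratios of levetiracetam over normal food, so these ratios are given as a description, with no test of them. Each gene was taken from spots whose annotation names that gene alone, the 2 neighbouring spots of a feature were averaged on each array, and then the features of a gene.

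Levetiracetam is an antiepileptic drug that in mammals binds the synaptic vesicle protein SV2A. Heads of unmated adult Oregon-R wild type males, kept for 3 days on food with 5 mg/ml of the drug, were compared with heads of males kept on normal food, in vials of 30 flies. RNA came from 8 pools of heads, and 1 treated and 1 control pool were hybridised together on each of 4 spotted cDNA arrays with 2 dyes, the 4 replicates. The drug-treated pool was labelled with Cy5 on the first pair of arrays, replicates 1 and 2, while replicates 3 and 4 were dye swaps that held it in Cy3. The samples are whole heads, so fewer cells of a type and less RNA per cell cannot be told apart. Labels of 6 of the 8 pools give the flies' age as 3 to 4 days, the other two give none, and the design text gives it as 7 to 10 days before feeding. The growth time after collection is 2 to 3 days for the control pool of replicate 1 and the levetiracetam pool of replicate 4. It is 10 to 11 days for the other pools. As labelled, growth time thus differs between the pools of replicates 1 and 4, in opposite directions, and cannot be told apart from treatment on either array. Whether these labels hold an error was not tested.

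Glycogen is the branched glucose store of the fly, held mainly in fat body and muscle and also in glia. UDP-glucose pyrophosphorylase makes the activated sugar, glycogen synthase adds it to the chain, and phosphorylase with the debranching enzyme releases it again. After conversion to glucose 6-phosphate the sugar enters glycolysis, which in the fly head feeds glia that supply neurons with fuel. In the polyol pathway sorbitol is oxidised to fructose, and myo-inositol oxygenase opens the inositol ring in the first step of its breakdown.

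All signed values are log2 ratios of the 2 channels of an array, so 0 means equal signal and 1 a doubling. The sources used here do not say which dye is on top of the ratio. It was read as Cy5 over Cy3, the order of the labelled channels, and the dye-swap arrays were given the opposite sign so that positive means higher with levetiracetam. Only the channel order makes that reading the likely one, and the values do not settle it. As deposited, arrays of opposite dye orientation correlated at a Pearson r of 0.086, 0.13, 0.18 and 0.11 across genes, above 0 like the 0.24 and 0.19 of arrays that share an orientation, so after turning they run against each other. Genes are not independent replicates. The values as deposited are given below for each of the 7 genes. An array had a value for 8040 to 12608 of 27648 spots, and 2259 named genes had a value on at least 3 arrays. The medians of these genes were -0.14, -0.12, 0.083 and 0.29 in replicates 1 to 4, so replicate 4 lay above 0 as a whole and replicates 1 and 2 below. Neighbouring features, next to each other in a row, correlated at a Pearson r between 0.22 and 0.60 on the single arrays. The layout of rows and blocks was read from the order of the spot IDs. No levels of single channels were used, so a gene's abundance cannot be stated. Photoreceptor markers had a value on at least 3 arrays for 4 of the 7 on the array, neuron markers for 1 of 3 and glia markers for 2 of 6. With the dye-swap arrays turned, the photoreceptor median was 0.18, with 3 of 4 above 0, and 0.041 without replicate 4. The neuron marker stood at -0.0255, and the glia median was -0.16, with 0 of 2 above 0. Eye genes such as Arr1, an arrestin, and trpl, a cation channel of the phototransduction cascade, were measured on all 4 arrays, while the defining genes ninaE, elav and repo were not analysed here.

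In the likely direction all 7 genes lay above 0 on every array that measured them, in 26 of 26 values. Over all genes tested, 7.88% lay above 0 on every array with a value, and 6.37% of the genes on 4 arrays did on all 4. This sign is what the genes were picked for, and nothing is read from the count. Their mean ratios ran from 0.25 for Gapdh1 to 0.80 for Sodh1, with a median of 0.59, where the median of all 2259 genes was 0.027. After adjustment over all genes the limma fit called 0 of 2259 genes, a background of 0%. At an unadjusted p under 0.05 the same fit held 60 genes, 44 higher and 16 lower with levetiracetam, the 44 being 1.95% of the genes. The 60 are fewer than the 1 in 20 that chance alone would mark at this threshold. Nothing is read from the 44 against the 16.

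**Figure D1:**
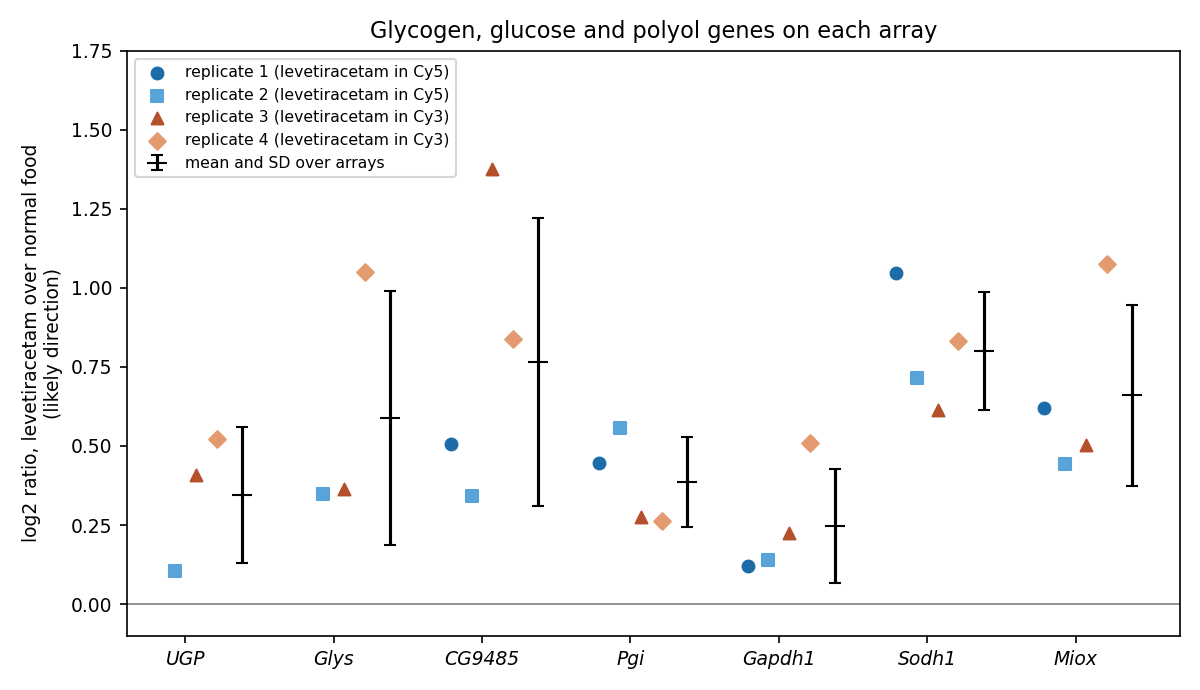
Log2 ratio of levetiracetam over normal food (vertical axis, likely direction) for the 7 genes on each array, with points coloured by replicate and the mean and SD over arrays in black. All 26 points lie above 0, Sodh1 has its lowest point at 0.61, and UGP and Glys have no point for replicate 1.

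UGP (Dmel_CG4347), UDP-glucose pyrophosphorylase, makes the UDP-glucose from which glycogen, and also trehalose and glycoproteins, are built. Its ratio was 0.10 in replicate 2, 0.41 in replicate 3 and 0.52 in replicate 4, with no value in replicate 1. Replicate 2 was the lowest and the 2 arrays with levetiracetam in Cy3 the highest. The mean was 0.34 ± 0.22 (SD, n = 3), which is 1.27-fold. With each array's median subtracted, UGP stood at 0.27, 0.33 and 0.21 in replicates 2 to 4, so replicate 4 was then the lowest. Only 1 of its 2 features had any value, so the second print of the gene could not be used. In replicate 2 its neighbouring spots lay on both sides of 0, at -0.078 and 0.29.

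Glys (Dmel_CG6904), glycogen synthase, extends the glycogen chain. Its ratio was 0.35 in replicate 2, 0.36 in replicate 3 and 1.05 in replicate 4. Replicate 4 stood apart from the 2 lower arrays, which were close to each other, and replicate 1 gave no value. The mean was 0.59 ± 0.40 (SD, n = 3), or 1.50-fold, and it was 0.36 without replicate 4. With each array's median subtracted, Glys stood at 0.51, 0.28 and 0.745 in replicates 2 to 4, and replicates 2 and 3 were then less alike. The spots of Glys disagreed most among the 7 genes. In replicate 2 they stood at -0.20 and 0.90, and in replicate 3 at 0.092 and 0.63, while in replicate 4 they were 1.02 and 1.08. The second spot was the higher in each of these pairs, and the 0.35 of replicate 2 is therefore a mean of values on both sides of 0. Because UGP and Glys lack replicate 1, their plain means weigh the Cy3 orientation by 2 arrays and the Cy5 orientation by 1. With both orientations weighing alike they were 0.28 and 0.53.

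CG9485 (Dmel_CG9485), the glycogen debranching enzyme, removes branch points so that phosphorylase can go on. Its ratio was 0.51 in replicate 1, 0.34 in replicate 2, 1.37 in replicate 3 and 0.84 in replicate 4. Both arrays with levetiracetam in Cy3 lay above both with levetiracetam in Cy5, with means of 1.11 and 0.42. The mean over arrays was 0.77 ± 0.46 (SD, n = 4), or 1.70-fold, and it was 0.56 without replicate 3. With each array's median subtracted, CG9485 stood at 0.65, 0.50, 1.3 and 0.53 in replicates 1 to 4. Replicate 4 then lay below replicate 1, so the split by dye did not hold. Its spots in replicate 3 were 1.03 and 1.72.

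Pgi (Dmel_CG8251), glucose-6-phosphate isomerase, turns glucose 6-phosphate into fructose 6-phosphate. Its ratio was 0.45 in replicate 1, 0.56 in replicate 2, 0.28 in replicate 3 and 0.26 in replicate 4. The Cy5 arrays were the higher here, in reverse of CG9485. The mean was 0.39 ± 0.14 (SD, n = 4), or 1.31-fold. With each array's median subtracted, its value in replicate 4 was -0.044, in replicates 1, 2 and 3 it was 0.59, 0.72 and 0.20, and the SD was 0.35.

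Gapdh1 (Dmel_CG12055), one of the fly's glyceraldehyde-3-phosphate dehydrogenases, catalyses the step of glycolysis that yields NADH. Its ratio was 0.12 in replicate 1, 0.14 in replicate 2, 0.22 in replicate 3 and 0.51 in replicate 4. Replicate 4 held the highest value and the other arrays lay close to each other. The mean was 0.25 ± 0.18 (SD, n = 4), or 1.19-fold, and it was 0.16 without replicate 4. With each array's median subtracted, Gapdh1 stood at 0.27, 0.30, 0.15 and 0.20 in replicates 1 to 4, so replicate 4 was then not the highest. This gene alone among the 7 had values for 2 features, in different blocks of the slide, with means of 0.23 and 0.26. Within the features, the first spot was higher than the second in 7 of 8 pairs, and both features had a second spot below 0 in replicate 1, at -0.074 and -0.044. The paralogue Gapdh2 was not analysed here, and cross-hybridisation between the paralogues was not tested.

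Sodh1 (Dmel_CG1982), a sorbitol dehydrogenase, oxidises sorbitol to fructose. Its ratio was 1.05 in replicate 1, 0.71 in replicate 2, 0.61 in replicate 3 and 0.83 in replicate 4. Replicate 1 was the highest, and the Cy5 and Cy3 orientations had overlapping values with means of 0.88 and 0.72. The mean was 0.80 ± 0.19 (SD, n = 4), or 1.74-fold, and it was 0.079 as deposited. The closest listed relative, Sodh2, was measured on 2 arrays only, at -0.33 in replicate 2 and 0.72 in replicate 4, and was not tested. Values of Sodh1 on the same arrays were 0.71 and 0.83.

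Miox (Dmel_CG6910), myo-inositol oxygenase, turns myo-inositol into glucuronate. Its ratio was 0.62 in replicate 1, 0.44 in replicate 2, 0.50 in replicate 3 and 1.08 in replicate 4. Replicate 4 held the highest value. The mean was 0.66 ± 0.29 (SD, n = 4), or 1.58-fold, and it was 0.52 without replicate 4. With each array's median subtracted, Miox stood at 0.77, 0.60, 0.42 and 0.77 in replicates 1 to 4, so replicate 4 then stood level with replicate 1. Its spots were the closest of the 7 genes, at most 0.15 apart on any array.

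Over the 7 genes there were 60 spot values in 30 pairs, 56 above 0 and 4 below. The median difference within a pair was 0.21, and 4 pairs were over 0.5 apart, from Glys and CG9485. Over all features the median difference within a pair was between 0.23 and 0.29 on the 4 arrays.

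**Figure D2:**
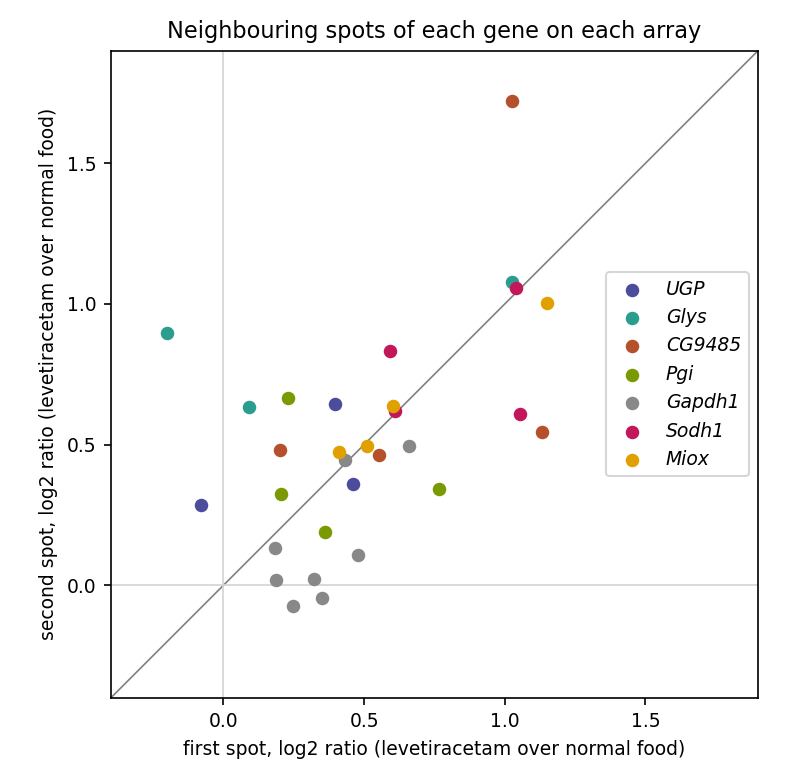
First against second neighbouring spot of each feature (log2 ratio, levetiracetam over normal food, likely direction), 1 point per feature and array, with the line of equal values in grey. The 30 points lie 0.21 apart in the median, and the point of Glys farthest from the line pairs -0.20 with 0.90.

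Slide position moved with some of these values. The median of the surrounding features around Sodh1 was -0.48, -0.31, -0.037 and 0.75 in replicates 1 to 4, so that its ratio relative to them was 1.53, 1.02, 0.65 and 0.078. In replicate 4 the features around Sodh1 thus stood nearly as high as Sodh1 itself. Around CG9485 they were -0.27, -0.18, 0.33 and 0.68, which left 0.78, 0.52, 1.05 and 0.16. Miox kept 0.66, 0.24, 0.56 and 0.80 relative to its surroundings. Glys in replicate 3 was 0.020 above its surroundings. Of the 24 values that could be set against at least 5 neighbours, all 24 lay above them, and 6 of 6 genes did so on each array with a value, where 9.12% of 2006 genes did. The Pgi feature had too few measured neighbours in replicates 3 and 4. Relative to the array medians, 6 of 7 genes lay above 0 on every array, all but Pgi, against 7.97% of the genes. Nothing is read from these counts, since they use the same contrast.

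As deposited, with no array turned, the genes lost their common sign. Each deposited value was positive in replicates 1 and 2 and negative in replicates 3 and 4. Means as deposited were -0.28 ± 0.33 for UGP and -0.36 ± 0.70 for Glys (SD, n = 3), and -0.34 ± 0.91 for CG9485 (SD, n = 4). Pgi stood at 0.12 ± 0.45, Gapdh1 at -0.12 ± 0.31, Sodh1 at 0.079 ± 0.94 and Miox at -0.13 ± 0.80 (SD, n = 4). The SD was larger than the size of the mean for each of the 7 genes, and 2 of 7 means lay above 0, where 19.0% of all genes did. The genes were picked for lying above 0 after turning, so mixed signs and wide SDs as deposited go with that choice. Nothing is read from them about which reading is right.

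**Figure D3:**
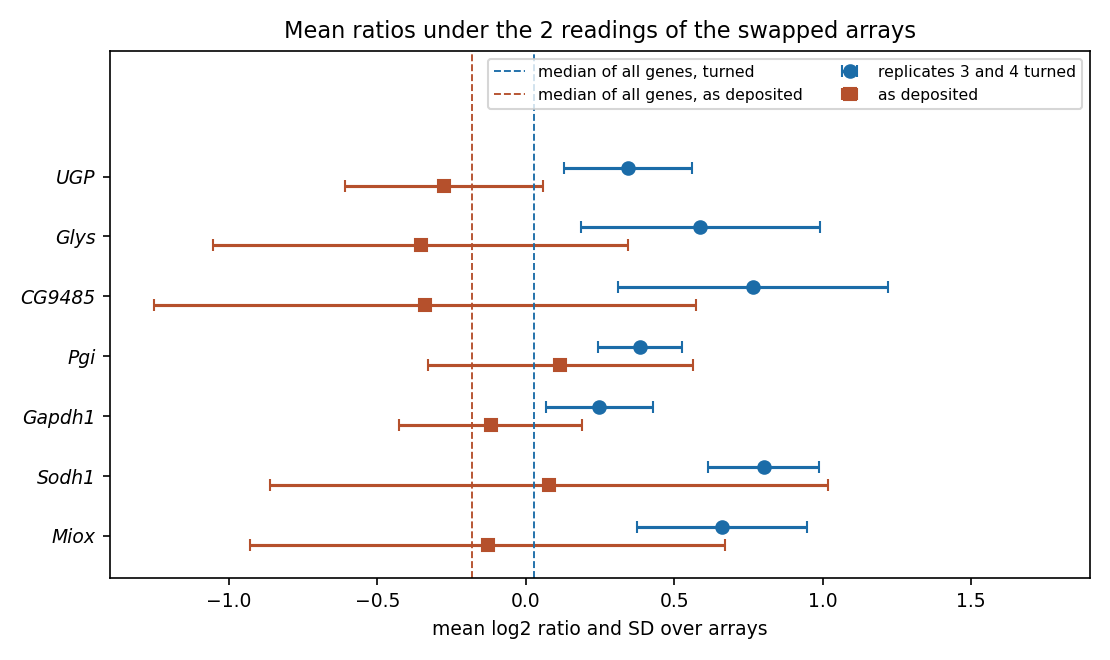
Mean log2 ratio with SD over arrays for the 7 genes, with replicates 3 and 4 turned (blue circles) and as deposited (red squares), and dashed lines at the medians of all genes under each reading, 0.027 and -0.18. Blue points lie between 0.25 and 0.80, and red points between -0.36 and 0.12 with longer bars. The genes were picked by their turned sign, so nothing is read from the length of the bars.

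The dye orientation term, the mean of the Cy5 arrays minus that of the Cy3 arrays, asks how far the 2 orientations differed. It ran from -0.68 for CG9485 to 0.23 for Pgi. Over all genes limma called 94 of 2259 (4.16%), 92 negative and 2 positive (CG13313 and Mst77F), and 0 of the 7 genes were among them. The medians of all genes were already lower on the Cy5 arrays, at -0.14 and -0.12, than on the Cy3 arrays, at 0.083 and 0.29. A negative term is therefore not particular to the 7 genes.

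The other genes of sugar metabolism came from 8 lists of textbook pathways, and 27 genes that were not among the 7 had a value on at least 3 arrays. With limma 0 of the 27 passed in either direction at adjusted p 0.05. An unadjusted p under 0.05 was held by 0 of the 27, beside 60 of all 2259 genes. As deposited 0 passed, with 0 higher and 6 lower at an unadjusted p under 0.05, beside 8 higher and 430 lower of all 2259 genes. Leaving out 1 array changed the sign of the mean for 13 of the 27. Their median ratio was 0.072, against 0.027 for all genes, and 15 of 27 lay above 0, against 57.3% of all genes. As deposited their median was -0.20, against -0.18 for all genes, and 5 of 27 lay above 0, against 19.0% of all genes.

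In glycogen turnover 4 other genes could be tested and 1 had a mean above 0, with a median of -0.088, which was 0.030 without replicate 2. Gbs-76A, a glycogen-binding subunit of protein phosphatase 1, stood at -0.35 ± 0.50 (SD, n = 4), and Gbs-70E, of the same family, at -0.15 ± 0.13. PhKgamma, the catalytic subunit of phosphorylase kinase, stood at -0.025 ± 0.55. Its values were -0.41 and -0.59 in the Cy5 arrays and 0.45 and 0.45 in the Cy3 arrays. CG7766, a regulatory subunit of the same kinase, stood at 0.37 ± 0.74 (SD, n = 3), between -0.42 and 1.03, and at 0.047 without replicate 4 or 0.77 without replicate 2. Glyp, glycogen phosphorylase itself, had a value in replicate 2 alone, at -1.30. Other genes of glycogen turnover thus had values on both sides of 0.

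In glycolysis and gluconeogenesis 7 of 9 other genes had means above 0, with a median of 0.15 and a highest mean of 0.22, and 3 of 9 as deposited. Without replicate 4 the median of these 9 was -0.011 and 4 of 9 lay above 0. Hex-C, a hexokinase, stood at 0.22 ± 0.17 (SD, n = 3). The aldolase gene Ald1 stood at 0.20 ± 0.47 and the phosphoglycerate kinase gene Pgk at 0.21 ± 0.46 (SD, n = 4 each). Both rested on replicate 4, at 0.88 and 0.85, and without it they were -0.022 and -0.011. Enolase, Eno, had the values 0.13, 0.17, 0.098 and 0.20 in replicates 1 to 4, a mean of 0.15 ± 0.047 (SD, n = 4).

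Of the polyol list, the aldo-keto reductase genes CG10863 and CG2767 stood at 0.24 ± 0.30 and -0.096 ± 0.33 (SD, n = 4 each). Of the inositol list, Pis, phosphatidylinositol synthase, stood at 0.22 ± 0.36 and CG9391 at 0.075 ± 0.15 (SD, n = 4 each), and Pis was 0.036 without replicate 4. Trehalase, Treh, which splits the blood sugar trehalose, stood at 0.11 ± 0.47, the trehalose transporter gene Tret1-1 at 0.065 ± 0.29 (SD, n = 4 each), and CG5177 at -0.083 ± 0.36 (SD, n = 3). Among transporters, sut2 stood at -0.054 ± 0.44 and nebu at 0.17 ± 0.38 (SD, n = 4 each). The only tested gene among users of UDP-glucose and makers of hexosamine was Gfat1, which makes glucosamine 6-phosphate, at -0.044 ± 0.63 (SD, n = 3).

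Among regulators 1 of 4 had a mean above 0. The receptor of adipokinetic hormone, AkhR, through which the fly mobilises glycogen and fat, stood at -0.28 ± 0.50 (SD, n = 4) and at -0.053 without replicate 1. The sugar-responsive transcription factor gene sug stood at -0.29 ± 0.045 (SD, n = 3), at -0.11 as deposited, -0.16 with the surrounding features' median subtracted and -0.21 with arrays centred. The gene foxo, a target of insulin signalling, stood at -0.038 ± 0.27. Ilp2, an insulin-like peptide of brain neurosecretory cells, stood at 0.12 ± 0.17 (SD, n = 4 each). None of these 4 passed in limma, at adjusted p 1.00.

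Markers of fat body, the main glycogen store, were set beside the 7 genes. Of 13 listed, 9 were on the array and 6 were tested, 4 of them above 0 with a median of 0.25, against 0.027 for all genes. That median was 0.13 without replicate 4, 0.41 without replicate 2 and -0.035 when markers missing from any array were dropped. With limma 0 of the 6 passed, and 2, Apoltp and bmm, had an unadjusted p under 0.05, beside 60 of all 2259 genes. The marker list was chosen with earlier results of these arrays known, so nothing is read from this count. Apoltp, which codes for a carrier of lipid between tissues, stood at 0.76 ± 0.36, and Mtp, which loads lipid onto lipoproteins, at 0.51 ± 0.53 (SD, n = 3 each). Mtp was 0.27 without replicate 3 and 0.79 without replicate 2. The lipase gene bmm stood at 0.46 ± 0.42, and apolpp, which codes for lipophorin, at -0.33 ± 0.41 (SD, n = 4 each), and without replicate 4 they were 0.27 and -0.52. The storage protein gene Lsp2 stood at 0.050 and FASN1 at -0.035. Medians of the 6 markers were 0.20, -0.17, 0.44 and 0.46 in replicates 1 to 4, and those of the 7 genes 0.51, 0.35, 0.41 and 0.83. In replicate 2 the median of the fat body markers lay below 0, as did that of all genes, at -0.12. The 7 genes were picked for lying above 0, so nothing is read from their difference from the markers there. As deposited 0 of the 6 markers lay above 0, where 19.0% of all genes did. Of 5 tested muscle markers 3 lay above 0, with a median of 0.0031. Zasp66, of the muscle Z-disc, stood at 0.65 ± 1.21 (SD, n = 4) through replicate 3 at 2.43, and at 0.054 without it. Act88F, a flight muscle actin, stood at 0.12 ± 0.10 (SD, n = 4), and the myosin light chain genes Mlc1 at -0.070 ± 0.088 and Mlc2 at -0.14 ± 0.26 (SD, n = 3 each). The part of fat body, muscle or other cell types of the head in the ratios of the 7 genes was not tested.

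**Figure D4:**
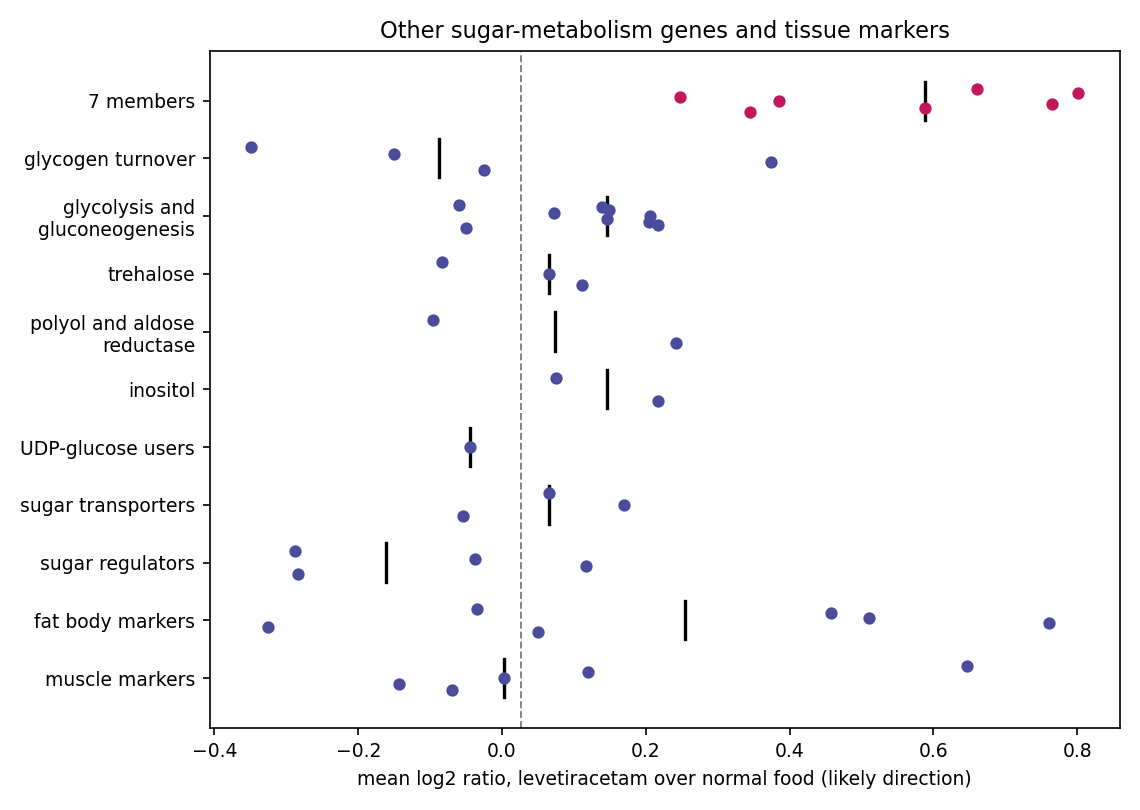
Mean log2 ratio of levetiracetam over normal food (horizontal axis, likely direction) of the 7 genes (red) and of the other tested genes of 8 sugar lists and 2 tissue marker lists (blue), with a black bar at each median and a dashed line at the median of all genes, 0.027. The 7 genes were chosen for their position, and the other glycolysis genes lie between -0.060 and 0.22.

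The genes whose ratios lay nearest to the per-array median of the 7 genes, by Euclidean distance over the 4 arrays, among 1627 others with a value on all 4, were Paics, Lst, Cyt-b5-r, Cyp28d1 and Prps. Paics, of purine synthesis, was nearest at a distance of 0.14, where the median gene lay at 1.16. Its values were 0.52, 0.46, 0.35 and 0.90 in replicates 1 to 4. Lst, a secreted peptide that limits insulin release, had 0.36, 0.32, 0.35 and 0.66, at a distance of 0.23. The means of Cyt-b5-r, Cyp28d1, a cytochrome P450, and Prps, which makes phosphoribosyl pyrophosphate, were 0.52, 0.65 and 0.49, at distances of 0.30, 0.32 and 0.38. As deposited the means of these 5 genes lay between -0.21 and -0.067. They are the nearest of 1627 to genes picked from the same ratios, so nothing is read from their closeness or their common sign.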

How the data were processed

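Per the labels' protocols, the authors quantified scans in GenePix Pro 6.0, applied ratio normalization in Acuity 4.0 and removed saturated, flagged and weak spots. The deposited values are log2 ratios per spot, blank where a spot failed. The log2 scale is a reading of the values. They run below 0, which plain ratios cannot, and the highest was 16.61, which does not itself show the scale. Centring is not stated and none was added. Intensities were not used here, so precision rests on the 4 arrays.

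Gene symbols came from the platform annotation, and the 7 members matched 7 RefSeq gene IDs, used for names only. limma 3.58.1 (R 4.3.3, lmFit and eBayes) gave two-sided tests of the mean ratio, adjusted by Benjamini-Hochberg over the 2259 genes on at least 3 arrays, with a threshold of 0.05, and a second fit with dye orientation. Both were run on simulated data with independent noise. The simulation held no shift of a whole array and no effect of slide position, so it does not show how the fits behave under these. Alternatives were the values as deposited, array centring, subtraction of the median of features within 2 rows and 3 columns of the block (at least 5 values), both spots required, all 4 or at least 2 arrays, spots beyond 3 left out, features singly, and each array left out. The members and lists were chosen with earlier results of these data known. Named genes were the 7 members, from each list up to 4 other genes with the smallest unadjusted p, and the 5 nearest in pattern. Glyp, Sodh2, Lsp2, FASN1 and genes counted in 5 or fewer were named after their values were seen.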

Additional observations from a re-analysis of the deposited data

Results flagged for a closer look

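Of 37 named genes with a value on all 4 arrays, 2 held 1 array far from the other 3, and chance alone marks about 1 in 20. Pis stood at 0.76 in replicate 4, against 0.00050 to 0.085 on the other arrays. Lst stood at 0.66 in replicate 4, against 0.32 to 0.36 on the other arrays. None of the 7 members held such an array, among the 5 of them with a value on all 4.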

How the results depend on the processing

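The values as deposited moved the members most: their median mean was -0.13, against 0.59, and 5 of 7 means lay below 0. Under every other setting run, the dye orientation term among them (chosen after seeing the data), all 76 member values stayed above 0. They lay between 0.16 and 0.91 and moved by less than 1 SD. Requiring both spots, accepting at least 2 arrays or leaving out spots beyond 3 left each member's mean as it was. The members were picked for this sign, so nothing is read from the count. With 1 array left out the median was between 0.43 and 0.71. The count of genes that passed over all genes was 0, but 1 with arrays centred, 1 with the local median subtracted (dpr16 in both) and 4 with dye orientation as a term (dpr16, Mst77F, Prosalpha7 and dnk), none of them a member; with 1 array left out it was 0 for each array. The 94 genes with an orientation term became 0 with arrays centred, 10 with the local median subtracted and 53 with a value on all 4 arrays required, and between 0 (without replicate 3) and 85 (without replicate 1) with 1 array left out. At an unadjusted p under 0.05 the 44 higher and 16 lower genes became 8 and 430 as deposited, and 25 and 61 without replicate 4. Pathway genes that are not members gave 0 passes under every setting run. The orientation term was not run for genes on only 2 arrays. Each array holds 1 treated and 1 control pool, so the ratios already pair them, and the fit of the mean ratio uses this pairing. There is only 1 group of ratios. Spot filters and the number of arrays limit what could be measured: 2 members had no value in replicate 1.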
